A study of Anas platyrhynchos with 16 samples.

Results

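Gene expression in the pituitary was set against that in the hypothalamus of Shanma ducks, a domestic breed of Anas platyrhynchos, that stayed in a combined floor and water housing system. Every library labelled as from a floor-water duck entered, 4 from pituitary and 4 from hypothalamus, a choice made with earlier results of these data known. They are 8 of the 16 libraries of the series. The other 8 come from ducks moved at 110 days of age into cages with 16 h of light, and they are used only where the same tissue difference under caging is given. The pituitary group and the hypothalamus group share breed, an age of 113 days, housing, natural light and commercial feed, and no allele, transgene or drug is involved. The labels do not give the sex of the birds and do not say whether each library stems from a bird of its own, so a p-value measures how these libraries vary, a spread that may be technical only.

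The pituitary lies under the hypothalamus and answers to it. Hypothalamic neurons release peptides and dopamine into portal vessels, and receptors on the endocrine cells of the anterior lobe read them and set the output of growth hormone, prolactin, corticotropin, thyrotropin and the gonadotropins. Steroid and thyroid hormones feed back on both tissues. The anterior lobe arises from oral epithelium and is an endocrine epithelium, whereas the hypothalamus is brain tissue made of neurons, astrocytes and myelin-forming oligodendrocytes. In birds the anterior lobe has no intermediate lobe beside it, and the neural lobe, the endings of hypothalamic axons, lies behind it.

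Total counts per library were 53476789 to 65601674 in pituitary and 38853215 to 59413096 in hypothalamus, and counting error matters only for genes near 0. Levels below are FPKM, the authors' fragments per kilobase of transcript, scaled to library size, and 0.0001 is the value the table lists for a gene without counts. Differences are log2 fold changes, pituitary minus hypothalamus, fitted to the counts with the quasi-likelihood test of edgeR and printed with their standard error after ±. A gene is called higher or lower where the adjusted p over all genes tested was under 0.05, and a second test asked whether the difference exceeded 2-fold.

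The labels were checked against markers. GH1 (growth hormone) stood at 105639, 78955, 142674 and 103179 FPKM in pituitary libraries 1 to 4, against 1167, 56.01, 212 and 309 FPKM in hypothalamus libraries 1 to 4 (8.23 ± 1.0, edgeR adjusted p = 0.00012). MBP, a structural protein of myelin, was at 6.44, 34.3, 8.88 and 99.9 FPKM in the pituitary libraries and 2458, 1362, 2359 and 4133 FPKM in the hypothalamus libraries (-5.90 ± 0.94, edgeR adjusted p = 0.00058). PRL (prolactin) and POMC (the precursor of corticotropin) followed GH1, so the 8 libraries divide into pituitary and brain tissue as labelled. MBP, a myelin gene, does not tell the hypothalamus from other brain areas, so this check did not test that part of the label. In each of these 4 markers every library of one tissue lay on the same side of every library of the other.

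Several libraries stand apart. The summed level of the 6 pituitary hormone genes was 137588 to 181004 FPKM in pituitary and 90.2 to 1948 FPKM in hypothalamus, with 0 of them listed without counts in any library. Hypothalamus library 1 was the high one by the median: the median level of the 6 pituitary hormone genes was 1.47% of the pituitary mean there and 0.0586%, 0.205% and 0.292% in hypothalamus libraries 2, 3 and 4. As a mean over the genes it did not stand apart, at 3.95%, 3.36%, 3.25% and 3.95% in hypothalamus libraries 1 to 4. Most of that mean came from TSHB, at a mean of 22.4 FPKM in pituitary and 4.34 FPKM in hypothalamus. The 18 myelin and oligodendrocyte genes summed to 81.7 to 303 FPKM in pituitary and 4097 to 9289 FPKM in hypothalamus. By the median over these genes pituitary libraries 2 and 4 were the high pituitary ones, at 6.13% and 5.41% of the hypothalamus mean, against 2.72% and 1.85% in pituitary libraries 1 and 3. By the mean over the genes library 1 was the highest, at 16.4%, with 12.8%, 5.88% and 9.14% in pituitary libraries 2, 3 and 4. The 13 neuron markers summed to 720.1 to 1198 FPKM in pituitary and 7202 to 7918 FPKM in hypothalamus, and their medians were 10.8% and 9.59% in pituitary libraries 2 and 4, against 5.54% and 4.79% in libraries 1 and 3. The part of these transcripts in the differences below was not tested, but values without 1 library are given where they change a call or move a called value by more than 1.5 times. Pituitary library 3 had the most concentrated RNA, its 10 most abundant genes taking 36.0% of counts, against 22.8% to 29.1% in the other pituitary libraries and 4.93% to 6.04% in the hypothalamus libraries.

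Some defining factors and peptides of hypothalamic nuclei were low in the hypothalamus libraries and others were abundant. NKX2-1, which patterns the ventral hypothalamus, was at 0.965, 2.05, 1.23 and 0.0001 FPKM in pituitary libraries 1 to 4 and at 0.817, 0.0001, 0.0863 and 0.0287 FPKM in hypothalamus libraries 1 to 4. RAX, a factor of tanycytes and of the early hypothalamus, was at 0.0693 to 0.2502 FPKM in the hypothalamus libraries and the arcuate feeding peptide AGRP at 0.0001 to 0.446 FPKM. Other peptides of hypothalamic nuclei stood far higher in the same libraries, CRH at 30.2 to 125 FPKM and VIP at 58.5 to 100.2 FPKM. GBX2, known from the thalamus of vertebrate embryos, reached 59.9, 88.5, 65.6 and 20.9 FPKM in hypothalamus libraries 1 to 4, and LHX9, known from the same place, 12.9, 14.9, 10.9 and 5.4 FPKM. Over these libraries CRH ran in the same order as GBX2, but VIP did not. VIP was highest in hypothalamus library 4, where GBX2 was lowest. The order of LHX9 differed from that of both peptides. Which neurons the CRH and VIP transcripts came from was not tested. The difference of NKX2-1 was not called (2.41 ± 1.58, edgeR adjusted p = 0.22) and was 4.84 (edgeR adjusted p = 0.046) without hypothalamus library 1. The label hypothalamus is kept below as the name of these 4 libraries. The labels do not say which area of the brain each piece covered.

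The tissues differed at a large share of genes. Of 15878 genes tested, 8935 (56.3%) were called, 4522 (28.5%) higher and 4413 (27.8%) lower in pituitary. Counts of list members called below are to be read against these shares. The test against a 2-fold difference passed 3962 genes (25.0%), 1826 (11.5%) higher and 2136 (13.5%) lower. That balance turned with upper quartile scaling, at 2087 higher and 1938 lower, and scaling by library totals called 3515 genes higher and 4949 lower. Differences past that test and over 5 on the log2 scale were more often higher in pituitary, 285 against 215, while differences over 2 were more often lower, 1522 against 1223. The middle 50% of all genes had log2 fold changes between -0.92 and 0.94, with a median of 0.07. That median was -0.15 when libraries were scaled by their totals and 0.20 with upper quartile scaling, so small differences have no fixed sign. With limma on log2(FPKM + 1) in place of counts, 657 genes passed the 2-fold test as higher and 1354 as lower, and with log2(FPKM + 0.1) 1084 and 1943.

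A shared base of expression lay under this. At least 1 FPKM was reached in all 8 libraries by 9293 genes. Only 340 genes were at 1 FPKM or more in the 4 pituitary libraries and below 1 FPKM in the 4 hypothalamus libraries, and 443 showed the reverse. A gene was called alike where the 95% interval of its log2 fold change lay within -0.5 and 0.5, and 791 genes (4.98%) met this. The most abundant of them were OAZ1, the antizyme that restrains polyamine synthesis, ITM2B, the start-codon factor EIF1, the ATP synthase subunit ATP5MC3 and the tetraspanin TSPAN3. OAZ1 was at 1365 to 1718 FPKM in pituitary and 1531 to 1947 FPKM in hypothalamus (log2 fold change 0.04 ± 0.19, interval -0.39 to 0.46), and TSPAN3 at 266 to 303 FPKM in pituitary and 339 to 392 FPKM in hypothalamus (interval -0.36 to 0.17). TSPAN3 was lower with scaling by totals (-0.32, edgeR adjusted p = 0.021).

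**Figure D1:**
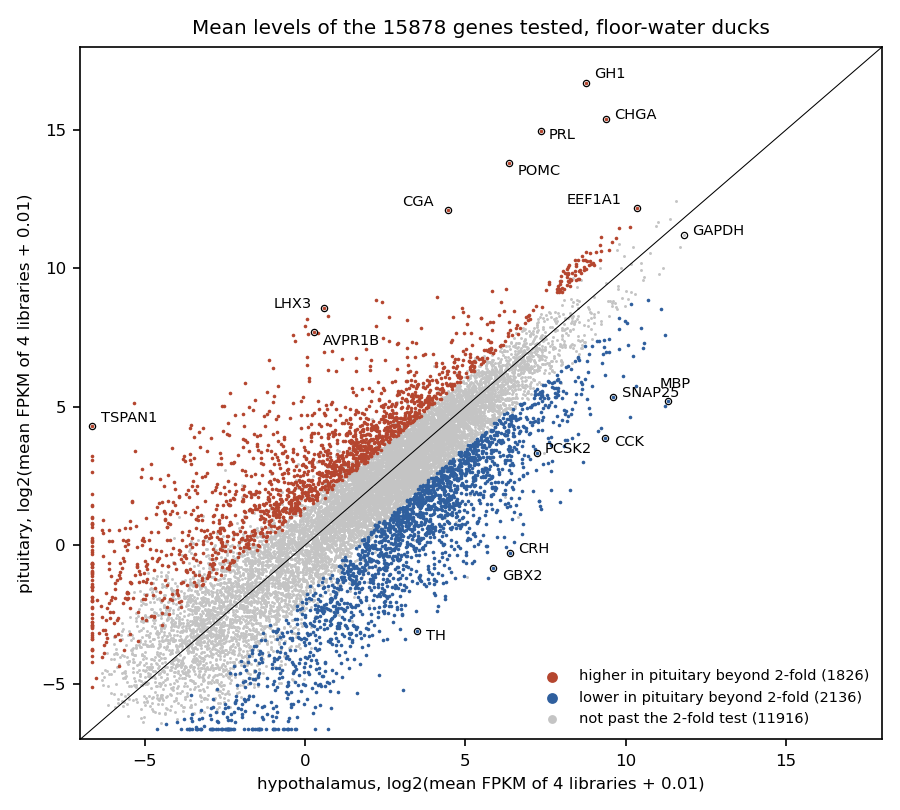
Mean FPKM of each of the 15878 genes tested, pituitary on the vertical axis and hypothalamus on the horizontal axis, both as log2(mean of 4 libraries + 0.01), with the line of equal level. Red points (1826) passed the 2-fold test as higher in pituitary, blue points (2136) as lower, and grey points (11916) did not pass it; GH1, CHGA, PRL and POMC stand at the top, far above the line.

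Hormone and granule genes headed the pituitary transcripts among genes with a symbol. The most abundant of these genes were, in order of mean FPKM, GH1, CHGA (chromogranin A, a matrix protein of secretory granules), PRL, POMC, EEF1A1, CGA, FTH1, ENO1, RPLP1 and GAPDH. Genes without a symbol are left out of this order, such as hemoglobin subunit alpha-A, at a mean of 3302 FPKM in pituitary. Among the most abundant in hypothalamus were GAPDH, FTH1, MBP, APOA1, HSPA8, ALDOC, CALM2, OAZ1 and TUBB4B, most of them enzymes and proteins of general use beside the myelin gene MBP. The 6 hormone genes took 14.3% to 17.9% of all counts in pituitary libraries and 0.0126% to 0.206% in hypothalamus libraries. CHGA was at 29020.4, 29198, 65708 and 47680.4 FPKM in pituitary libraries 1 to 4, against 1048, 549.8, 542 and 554 FPKM in hypothalamus libraries 1 to 4 (log2 fold change 6.29 ± 0.49, edgeR adjusted p = 1.3e-05). Each pituitary library thus stood more than an order of magnitude above each hypothalamus library.

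All 6 hormone genes tested were higher in pituitary and past the 2-fold test, which 11.5% of all genes passed as higher, with a median log2 fold change of 7.86, against 0.07 over all genes. Without hypothalamus library 1 that median was 9.29. PRL stood at 35194, 39446, 21307 and 31803 FPKM in pituitary libraries 1 to 4 and 475, 19.8, 63.1 and 94.6 FPKM in hypothalamus libraries 1 to 4 (7.82 ± 1.02, edgeR adjusted p = 0.00018). Within the pituitary libraries GH1 and PRL moved apart, since library 3 had the highest GH1 and the lowest PRL. POMC was at 10867, 15363, 11879 and 19434 FPKM in pituitary and 235, 6.63, 31.3 and 57.6 FPKM in hypothalamus libraries (7.68 ± 1.08, edgeR adjusted p = 0.00028). Like GH1, it was highest in hypothalamus library 1, then in 4, 3 and 2. In brain POMC is also the precursor of a satiety peptide made by arcuate neurons.

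The glycoprotein hormones pair a common alpha subunit with a specific beta subunit. The alpha subunit CGA was at 5459, 3443, 4879 and 3820.1 FPKM in pituitary and 63.5, 3.09, 9.33 and 12.1 FPKM in hypothalamus libraries (7.90 ± 1.01, edgeR adjusted p = 0.00016). FSHB, the beta subunit of follicle-stimulating hormone, was at 311, 347, 245 and 242 FPKM in pituitary and 2.896, 0.158, 0.3496 and 0.726 FPKM in hypothalamus (8.36 ± 0.89, edgeR adjusted p = 5.6e-05), the largest fold among the hormones. TSHB, the beta subunit of thyrotropin, was by far the lowest hormone in pituitary, at 16.7, 32.2, 19.1 and 21.4 FPKM in libraries 1 to 4, against 3.81, 4.44, 4.15 and 4.97 FPKM in hypothalamus libraries (2.56 ± 0.19, edgeR adjusted p = 1.1e-05). Its levels in the hypothalamus libraries were even and did not follow those of GH1. LHB, the beta subunit of luteinising hormone, was not analysed here.

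Transcription factors that build and keep the endocrine lineages stood with the hormones. Of 17 tested, 14 were higher in pituitary, 12 of them past the 2-fold test, 1 was lower and 2 were not called; the median log2 fold change was 4.01. LHX3, needed for the anterior lobe to form, was at 464, 344, 426 and 277 FPKM in pituitary libraries 1 to 4 and 4.47, 0.168, 0.458 and 0.906 FPKM in hypothalamus libraries 1 to 4 (8.24 ± 1.04, edgeR adjusted p = 0.00015). POU1F1 (PIT1), which activates GH1, PRL and TSHB, was at 99.2, 139, 85.6 and 92.3 FPKM in pituitary and 1.24, 0.0001, 0.207 and 0.347 FPKM in hypothalamus libraries (8.10 ± 1.06, edgeR adjusted p = 0.00018). Each was lowest in hypothalamus library 2, the library with the lowest GH1.

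Factors of single lineages were also higher. TBX19 (TPIT), the factor of POMC cells, ranged over 7.46 to 21.6 FPKM in pituitary and 0.0123 to 0.134 FPKM in hypothalamus libraries (7.69 ± 0.56), with its highest pituitary values in libraries 2 and 4, which also had the highest POMC. NR5A1 (SF1), a factor of gonadotropes, was at 146, 74.9, 148 and 75.7 FPKM in pituitary and 2.91, 0.281, 0.395 and 0.537 FPKM in hypothalamus libraries (7.04 ± 0.88). Others past the 2-fold test included PITX1 (5.76 ± 0.77), INSM1 (5.50 ± 0.40), FOXL2 (4.45 ± 0.24), NEUROD1 (4.01 ± 0.44) and EYA1 (2.77 ± 0.27). ISL1 (2.44 ± 0.69) and GATA2 (1.94 ± 0.62) were higher without passing the 2-fold test. The call of GATA2 was lost without pituitary library 3 (1.86, edgeR adjusted p = 0.053), without pituitary library 4 (1.70, edgeR adjusted p = 0.061), without hypothalamus library 1 (1.68, edgeR adjusted p = 0.057) and without hypothalamus library 3 (1.87, edgeR adjusted p = 0.062), and that of ISL1 without pituitary libraries 2 and 4 (2.22, edgeR adjusted p = 0.06). SOX2, a factor of pituitary stem cells that neural stem cells and astrocytes use too, was lower, at 3.62, 4.28, 2.63 and 3.38 FPKM in pituitary and 7.65, 4.62, 6.67 and 7.09 FPKM in hypothalamus libraries (-0.70 ± 0.16, edgeR adjusted p = 0.0041).

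**Figure D2:**
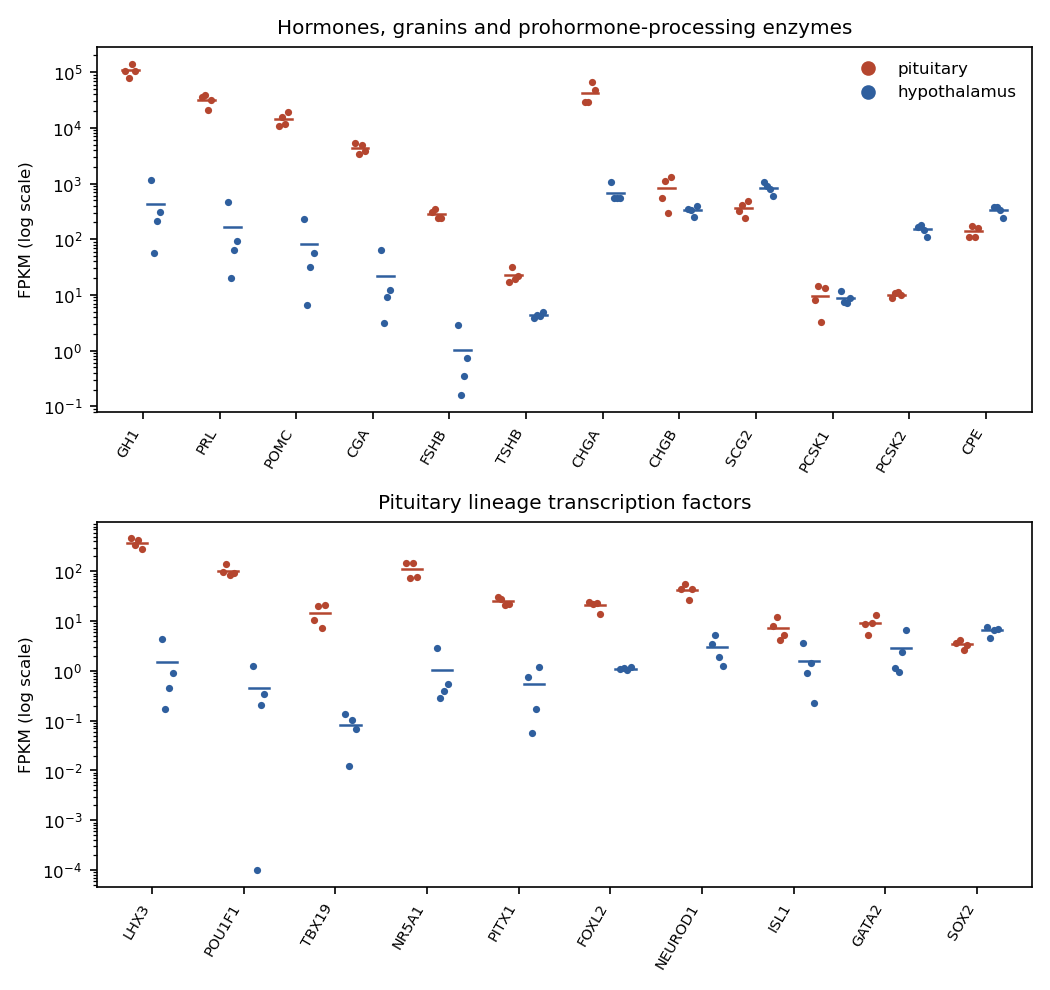
FPKM on a log scale for hormones, granins and prohormone-processing enzymes (upper panel) and lineage transcription factors (lower panel), 1 point per library with the mean of 4 as a line, pituitary in red left of hypothalamus in blue. The hormone genes and CHGA separate by orders of magnitude, PCSK1 overlaps and PCSK2, CPE and SCG2 lie lower in pituitary.

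Granins and processing enzymes differed one by one. Of 13 granin and prohormone-processing genes, 4 were higher and 4 lower in pituitary, near the 28.5% and 27.8% of all genes, with a median of -0.25. After CHGA the higher ones were CHGB (1.47 ± 0.37), SCG3 (1.09 ± 0.14) and the protease FURIN (1.12 ± 0.18), and CHGB was at 0.58 (edgeR adjusted p = 0.06) without pituitary libraries 2 and 4. PCSK2, the convertase that cuts POMC down to melanotropin and endorphin peptides in mammals, was at 8.86, 10.8, 11.1 and 9.82 FPKM in pituitary libraries 1 to 4, against 164, 183, 147 and 107 FPKM in hypothalamus libraries 1 to 4 (-3.65 ± 0.23, edgeR adjusted p = 6.2e-06). PCSK1, the convertase that releases corticotropin from POMC, was at 7.94, 14.5, 3.304 and 13.04 FPKM in pituitary and 11.7, 7.43, 7.08 and 8.79 FPKM in hypothalamus libraries, ranges that overlap (0.31 ± 0.35, edgeR adjusted p = 0.47). CPE, which trims the cut peptides, was lower (-1.04 ± 0.20), as were SCG2 (-1.01 ± 0.23) and the granule membrane protein PTPRN2 (-1.3 ± 0.19).

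Genes for entry into and passage through the endoplasmic reticulum and Golgi were mostly higher. Of 47 tested, 30 were higher, against 28.5% of all genes, 5 lower and 6 alike, with a median log2 fold change of 0.80. The differences were modest, as 10 passed the 2-fold test as higher, among them the stress-linked factor CREB3L2 (2.27 ± 0.17), the cargo receptor TMED3 (2.08 ± 0.31) and the translocon subunit SEC61B (1.75 ± 0.15). SEC61B was at 91.96 to 107 FPKM in pituitary and 28.6 to 38.5 FPKM in hypothalamus. SEC23A, a coat protein of vesicles that leave the reticulum, went the other way, at 3.62 to 8.4 FPKM in pituitary and 25.1 to 33.5 FPKM in hypothalamus (-2.25 ± 0.22), while its paralog SEC23B was higher (0.88 ± 0.15).

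All 62 ribosomal protein genes tested were higher in pituitary, and 59 passed the 2-fold test. Their log2 fold changes lay between 1.02 and 2.13, a narrow band with a median of 1.62, and in none did the groups overlap, as in 53.8% of all genes. RPLP1, of the ribosomal stalk, was at 2657, 2782, 3163 and 2785 FPKM in pituitary libraries 1 to 4 and 839, 894, 847 and 952 FPKM in hypothalamus libraries 1 to 4 (1.93 ± 0.17, edgeR adjusted p = 2e-05). Single members of this family are uncertain, because reads may be shared with near-identical copies. Of 35 translation factors 17 were higher and 8 lower, with a median of 0.36. The elongation factor isoforms parted: EEF1A1 was higher, at 4134 to 4932 FPKM in pituitary and 1196 to 1398 FPKM in hypothalamus (2.06 ± 0.17), and EEF1A2, the form of neurons and muscle, was lower, at 443 to 669 FPKM in pituitary and 1209.6 to 1393 FPKM in hypothalamus (-0.97 ± 0.22).

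Peptides that hypothalamic neurons send to the pituitary were lower in pituitary or not called. Of 8 tested, 5 were lower, against 27.8% of all genes, and 0 higher by edgeR, 2 of them past the 2-fold test, with a median of -3.53 that was -5.58 without pituitary library 2. CRH, which drives corticotropin release, was at 0.1396, 0.933, 0.357 and 1.82 FPKM in pituitary libraries 1 to 4 and 85.5, 125, 93.8 and 30.2 FPKM in hypothalamus libraries 1 to 4 (-6.47 ± 0.77, edgeR adjusted p = 0.00011). VIP, the main releaser of prolactin in birds, was at 2.65, 14.2, 0.299 and 2.31 FPKM in pituitary and 58.5, 98.5, 63.2 and 100.2 FPKM in hypothalamus libraries (-3.96 ± 0.86, edgeR adjusted p = 0.0035). The groups did not overlap for either peptide.

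For others the value or the call hung on single libraries. SST (somatostatin, which restrains growth hormone) was at 0.278, 155, 0.551 and 4.76 FPKM in pituitary libraries 1 to 4 and 176, 44.3, 112 and 157 FPKM in hypothalamus libraries 1 to 4 (-1.56 ± 1.48, edgeR adjusted p = 0.39): pituitary library 2 stood at the level of the hypothalamus libraries and the other 3 far below. Without that library SST was lower in pituitary (-5.81, edgeR adjusted p = 0.0018). NPVF, the precursor of the gonadotropin-inhibitory hormone, was at 0.0001, 0.781, 0.0001 and 0.991 FPKM in pituitary and 129.5, 0.242, 1.64 and 2.16 FPKM in hypothalamus libraries (-6.03 ± 2.10, edgeR adjusted p = 0.034) and was -1.45 (edgeR adjusted p = 0.46) without hypothalamus library 1, which held nearly all of it. TRH, the thyrotropin-releasing peptide, was at 4.09, 2.38, 0.411 and 2.82 FPKM in pituitary and 35.6, 1.06, 2.33 and 7.78 FPKM in hypothalamus libraries (-2.10 ± 1.01, edgeR adjusted p = 0.11), highest in hypothalamus library 1, and -2.48 (edgeR adjusted p = 0.047) without hypothalamus library 2. GHRH was lower (-3.25 ± 1.09), a call lost without hypothalamus library 1 (-3.15, edgeR adjusted p = 0.056) or 2 (-2.89, edgeR adjusted p = 0.067) and without pituitary library 3 (-2.86, edgeR adjusted p = 0.053) or 4 (-3.21, edgeR adjusted p = 0.067). Without both pituitary libraries 2 and 4 GHRH was at -6.82 (edgeR adjusted p = 0.00083). ADCYAP1, the PACAP precursor, was lower as well (-3.81 ± 1.18), at -3.63 (edgeR adjusted p = 0.055) without pituitary library 4 and at -5.97 without pituitary library 2. The NPVF call was also lost without any single pituitary library, at an edgeR adjusted p between 0.053 and 0.077.

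Vasotocin, the avian form of vasopressin, varied widely between libraries. The gene annotated as vasotocin-neurophysin VT-like was at 1.24, 1.32, 0.688 and 8.65 FPKM in pituitary libraries 1 to 4 and at 702, 155, 129.9 and 5.86 FPKM in hypothalamus libraries 1 to 4 (-6.16 ± 1.42, edgeR adjusted p = 0.0047). Hypothalamus library 4 lay within the pituitary range, so the groups overlapped. A gene annotated as vasopressin-neurophysin 2-copeptin was also highest in pituitary library 4 and ran in the same order over the hypothalamus libraries, 0.114 to 5.41 FPKM in pituitary and 230.3, 68.2, 52.6 and 3.703 FPKM in hypothalamus libraries 1 to 4 (-5.30 ± 1.29).

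The receptors for these signals differed one by one. Of 19 tested, 8 were higher and 6 lower in pituitary, 6 and 5 past the 2-fold test, against 28.5% and 27.8% of all genes called and 11.5% and 13.5% past the 2-fold test. AVPR1B, through which vasotocin and vasopressin act on corticotropes, was at 124, 257, 177 and 274 FPKM in pituitary libraries 1 to 4 and 3.18, 0.186, 0.527 and 0.976 FPKM in hypothalamus libraries 1 to 4 (7.67 ± 0.86, edgeR adjusted p = 7.2e-05). It was the most abundant receptor of the list, above CRHR1, the receptor for CRH, at 11.4, 10.5, 4.56 and 27.99 FPKM in pituitary and 6.19, 8.23, 5.48 and 4.64 FPKM in hypothalamus libraries (1.34 ± 0.45, edgeR adjusted p = 0.03). The CRHR1 call was lost without pituitary library 4 (0.68, edgeR adjusted p = 0.07), without hypothalamus libraries 1, 3 or 4 in turn (edgeR adjusted p between 0.067 and 0.077) and with scaling by totals (1.14, edgeR adjusted p = 0.069). Both receptors were highest in pituitary library 4, which also had the highest POMC.

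GHRHR, the receptor for growth hormone-releasing hormone, was at 40.3, 37.02, 41.8 and 33.7 FPKM in pituitary and 0.758, 0.0001, 0.185 and 0.366 FPKM in hypothalamus libraries (7.12 ± 0.92, edgeR adjusted p = 0.00016). TRHR, the receptor for TRH, stood at 8.73 to 12.4 FPKM in pituitary and 0.207 to 0.596 FPKM in hypothalamus (4.88 ± 0.36). The receptors AVPR1A (2.07 ± 0.46), SSTR5 (2.16 ± 0.32) and VIPR1 (1.80 ± 0.23) passed the 2-fold test too, and the dopamine receptor DRD2, which in mammals restrains prolactin, was higher without passing it (1.56 ± 0.36). AVPR1A was at 1.33 without pituitary library 2, and DRD2 at 1.15 (edgeR adjusted p = 0.054) without pituitary libraries 2 and 4. A gene annotated as gonadotropin-releasing hormone II receptor-like, not on the list and named after its values were seen, was at 76.2, 55.3, 144 and 64.6 FPKM in pituitary and 1.297, 0.1102, 0.273 and 0.268 FPKM in hypothalamus libraries (7.79 ± 0.82, edgeR adjusted p = 5.3e-05).

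The somatostatin and dopamine receptor families divided between the tissues. SSTR5 was higher in pituitary, whereas SSTR1 (-2.86 ± 0.58) and SSTR3 (-1.91 ± 0.34) were lower past the 2-fold test and SSTR4 (-0.99 ± 0.27) lower without passing it. DRD1 was at 0.03502 to 0.324 FPKM in pituitary and 4.15 to 10.4 FPKM in hypothalamus (-5.09 ± 0.60, edgeR adjusted p = 0.0001), the opposite of DRD2. The PACAP receptor ADCYAP1R1 (-4.44 ± 0.76) and the receptor of gonadotropin-inhibitory hormone NPFFR1 (-5.21 ± 1.11) were lower as well. NPFFR1 was listed without counts in pituitary libraries 1 and 3 and reached 7.05 to 9.197 FPKM in the hypothalamus libraries. Without pituitary libraries 2 and 4, which left no counts in pituitary, its fitted value was -12.70, and SSTR4 was at -0.74 (edgeR adjusted p = 0.061).

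**Figure D3:**
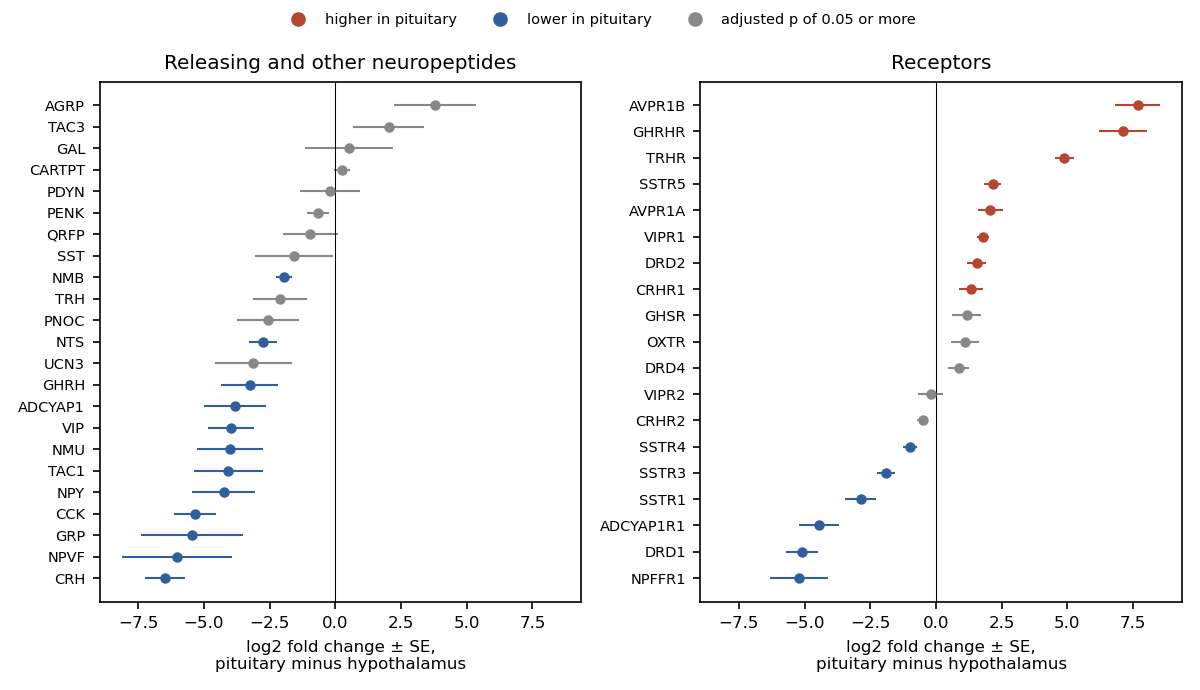
Log2 fold change, pituitary minus hypothalamus, with its standard error for releasing and other neuropeptides (left) and for receptors of releasing and inhibiting signals (right), from edgeR over 8 libraries. Peptides lie at or below 0 apart from a few uncalled ones such as AGRP, while AVPR1B, GHRHR and TRHR head the receptors and NPFFR1, DRD1 and ADCYAP1R1 close them.

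Hormone receptors that carry feedback were mostly higher in pituitary. Of 11 tested, 8 were higher and 1 was lower, with 4 past the 2-fold test and a median of 1.12. LEPR, the leptin receptor, was at 3.04, 4.82, 6.97 and 8.02 FPKM in pituitary libraries 1 to 4 and 0.1501, 0.059, 0.192 and 0.0159 FPKM in hypothalamus libraries 1 to 4 (6.04 ± 0.72, edgeR adjusted p = 0.00011). The progesterone receptor PGR stood at 11.5, 8.795, 13.98 and 15.1 FPKM in pituitary and 0.915, 0.0497, 0.402 and 0.386 FPKM in hypothalamus (5.08 ± 0.68), and the oestrogen receptor ESR1 at 4.23, 4.57, 2.93 and 3.31 FPKM in pituitary and 0.405, 0.111, 0.418 and 0.432 FPKM in hypothalamus (3.66 ± 0.39). In all 3 the groups were far apart at low absolute levels. The growth hormone receptor GHR (2.26 ± 0.30) was higher past the 2-fold test as well. The glucocorticoid receptor NR3C1 was higher (1.14 ± 0.19), and NR3C2, the mineralocorticoid receptor, lower (-0.86 ± 0.23).

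Of 13 genes of thyroid hormone handling, 6 were higher and 1 lower, so that the share called was near the 56.3% of all genes. DIO3, the deiodinase that inactivates thyroid hormone, was at 4.53, 13.9, 2.66 and 2.95 FPKM in pituitary and 0.29, 0.143, 0.194 and 0.691 FPKM in hypothalamus libraries (4.28 ± 0.67, edgeR adjusted p = 0.00054). DIO2, which activates it, was higher without passing the 2-fold test, at 18.6, 35.04, 9.87 and 20.7 FPKM in pituitary and 8.95, 10.2, 12.7 and 9.92 FPKM in hypothalamus (1.17 ± 0.26) and at 0.67 without pituitary libraries 2 and 4. The transporters SLCO1C1 (4.72 ± 0.95) and SLC16A10 (3.47 ± 0.19) were higher and SLC7A5 lower (-1.79 ± 0.24). SLCO1C1, DIO3, DIO2 and the thyroid hormone-binding protein CRYM all peaked in pituitary library 2, where CRYM reached 113 FPKM, with 9.23 to 12.5 FPKM in the other pituitary libraries and 15.1 to 34.2 FPKM in hypothalamus. CRYM was not called (0.75 ± 0.72, edgeR adjusted p = 0.41) and was lower without pituitary library 2 (-0.84, edgeR adjusted p = 0.023).

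Neuronal genes were lower in pituitary throughout. All 13 neuron markers tested were lower and past the 2-fold test, with a median of -3.49. SNAP25, a membrane fusion protein of synaptic vesicles, was at 27.4, 47.5, 23.8 and 65.2 FPKM in pituitary libraries 1 to 4 and 742, 853, 820.0 and 731 FPKM in hypothalamus libraries 1 to 4 (-4.06 ± 0.31, edgeR adjusted p = 1.2e-05). The smallest difference was that of UCHL1, a protease of neurons and endocrine cells, at 383 to 489.9 FPKM in pituitary and 1015 to 1245 FPKM in hypothalamus (-1.23 ± 0.13). GAP43, a growth cone protein, varied between the pituitary libraries, at 0.912, 21.3, 0.708 and 9.69 FPKM in pituitary libraries 1 to 4 and 196 to 233 FPKM in hypothalamus (-4.58 ± 0.98, and -7.76 without pituitary libraries 2 and 4). In bulk tissue, fewer cells of a type and less RNA per cell cannot be told apart.

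GABA and glutamate genes followed. Of 36 tested, 32 were lower, 31 past the 2-fold test, with a median of -3.80. SLC17A6, the glutamate transporter of subcortical neurons, was at 0.174, 6.35, 0.404 and 9.04 FPKM in pituitary and 208, 245, 215 and 149 FPKM in hypothalamus libraries (-5.52 ± 1.13, edgeR adjusted p = 0.0025), and -9.11 without pituitary libraries 2 and 4. The GABA-synthesising enzyme GAD1 was at 0.286 to 1.32 FPKM in pituitary and 14.3 to 53.3 FPKM in hypothalamus (-5.47 ± 0.61), while its isoform GAD2 kept 3.56 to 20.5 FPKM in pituitary, against 60.8 to 147 FPKM in hypothalamus (-2.88 ± 0.45). GABRG3 (1.68 ± 0.24), GRIN3A (1.56 ± 0.29) and GRIK4 (0.87 ± 0.17), subunits of GABA and glutamate receptors, were the 3 members higher in pituitary. GRIN3A stood at 22.04, 16.6, 12.7 and 7.25 FPKM in pituitary and 6.57, 5.73, 6.45 and 4.14 FPKM in hypothalamus libraries.

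Vesicle and exocytosis genes separated by isoform. Of 34 tested, 28 were lower and 3 higher, with a median of -2.04. The calcium sensor SYT2 was at 0.0001, 0.446, 0.379 and 3.47 FPKM in pituitary and 67.6, 45.1, 89.02 and 163 FPKM in hypothalamus libraries (-6.17 ± 1.28, edgeR adjusted p = 0.0027). SYTL4 (granuphilin), which docks secretory granules in endocrine cells, was at 9.91, 7.54, 11.1 and 10.8 FPKM in pituitary and 2.94, 2.38, 2.81 and 2.401 FPKM in hypothalamus libraries (2.15 ± 0.22, edgeR adjusted p = 4.3e-05). RAB3B was higher (0.91 ± 0.17) and RAB3A (-3.30 ± 0.28) and RAB3C (-2.64 ± 0.18) lower within one family of granule GTPases. Of the priming factors, UNC13C was lower (-4.32 ± 0.62) and UNC13A not called (-0.12 ± 0.21, interval -0.59 to 0.35).

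Ion channels were mostly lower. Of 18 sodium, calcium and pacemaker channel genes 11 were lower and 1, the T-type calcium channel CACNA1H, was higher (0.93 ± 0.21). The sodium channel subunits SCN8A (-3.22 ± 0.22) and SCN2B (-3.16 ± 0.26) were among the lower ones. Of 27 potassium channel genes 20 were lower and 5 higher. KCNMB4, a subunit of large-conductance calcium-activated channels, was at 16.7, 14.8, 15.8 and 17.3 FPKM in pituitary and 4.58, 4.03, 5.35 and 6.04 FPKM in hypothalamus libraries (1.92 ± 0.20), and KCNJ4 went furthest the other way (-5.28 ± 1.2, and -8.51 without pituitary libraries 2 and 4).

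Several monoamine genes, TH, SLC6A4, SLC18A2 and SLC6A2 among them, were far higher in hypothalamus library 4 than in the other hypothalamus libraries. Of 14 tested, 6 were lower and 2 higher, a share called near the 56.3% of all genes. TH, the first enzyme of dopamine synthesis, was at 0.0001, 0.0934, 0.0293 and 0.3002 FPKM in pituitary libraries 1 to 4 and 1.82, 1.81, 2.95 and 38.8 FPKM in hypothalamus libraries 1 to 4 (-6.48 ± 1.48, edgeR adjusted p = 0.0045), with library 4 more than 10 times above the other hypothalamus libraries. The same library had the highest serotonin transporter SLC6A4 (0.0937, 0.0001, 0.141 and 14.6 FPKM in hypothalamus libraries 1 to 4), vesicular transporter SLC18A2 (5.28, 2.15, 4.36 and 70.4 FPKM) and noradrenaline transporter SLC6A2 (2.81, 1.897, 2.47 and 30.6 FPKM). Without hypothalamus library 4 the log2 fold change was -4.12 for TH, -2.85 for SLC6A2, against -4.82 ± 1.13 with it, and -0.86 (edgeR adjusted p = 0.24) for SLC18A2, against -3.24 ± 1.13 with it. The SLC18A2 call was also lost without pituitary libraries 1, 3 or 4 in turn (edgeR adjusted p between 0.079 and 0.088). SLC6A4 was not called with that library (-0.48 ± 1.59) and was higher in pituitary without it (5.06, edgeR adjusted p = 0.0025), at 1.57 to 3.17 FPKM in the pituitary libraries. GCH1, which makes the cofactor of these enzymes, was higher in pituitary, at 19.98, 30.2, 25.5 and 45.2 FPKM in pituitary and 2.53, 1.05, 1.596 and 9.63 FPKM in hypothalamus (3.26 ± 0.68). CHAT, which makes acetylcholine, had no counts in any pituitary library and 0.212 to 1.07 FPKM in hypothalamus, at least 23.6-fold lower in pituitary with a floor of 3 counts per library.

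Feeding and other neuropeptides were led by CCK. Of 15 tested, 7 were lower, against 27.8% of all genes, and 0 higher by edgeR, with a median of -1.95. The other 8 were not called, and the share called was below the 56.3% of all genes. CCK was at 5.96, 17.1, 3.33 and 32.5 FPKM in pituitary libraries 1 to 4 and 639, 1079, 713 and 219 FPKM in hypothalamus libraries 1 to 4 (-5.32 ± 0.80, edgeR adjusted p = 0.00041). NPY, an orexigenic peptide, was at 1.74, 49.7, 1.08 and 3.74 FPKM in pituitary and 377, 437, 215 and 71.5 FPKM in hypothalamus (-4.24 ± 1.2), and TAC1, the substance P precursor, at 0.258, 33.7, 0.311 and 5.68 FPKM in pituitary and 262, 179, 197 and 62.9 FPKM in hypothalamus (-4.07 ± 1.31). In both, pituitary library 2 lay far above the other pituitary libraries. Without it the log2 fold change was -6.76 for NPY and -6.19 for TAC1, and the call of TAC1 was lost without pituitary library 4 (-3.90, edgeR adjusted p = 0.063). GRP, gastrin-releasing peptide, was at 1.62, 0.724, 4.05 and 398 FPKM in hypothalamus libraries 1 to 4, and its difference (-5.45 ± 1.94) was 0.10 (edgeR adjusted p = 0.92) without library 4. The call of GRP was also lost without any single pituitary library (edgeR adjusted p between 0.058 and 0.089).

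Pituitary library 2 stood above the other pituitary libraries in a set of hypothalamic transcripts. AGRP was at 0.339, 12.3, 0.543 and 0.0723 FPKM in pituitary libraries 1 to 4 and 0.446, 0.293, 0.244 and 0.0001 FPKM in hypothalamus libraries 1 to 4, and GAL (galanin) at 1.17, 66.3, 0.517 and 0.475 FPKM in pituitary and 44.1, 1.89, 2.38 and 1.16 FPKM in hypothalamus. Neither difference was called (edgeR adjusted p = 0.064 for AGRP and 0.81 for GAL), GAL was lower without pituitary library 2 (-3.85, edgeR adjusted p = 0.047), and AGRP was higher without pituitary library 4 (4.20, edgeR adjusted p = 0.037). The opioid precursor PDYN was at 3.55, 36.3, 0.616 and 1.597 FPKM in pituitary and 34.5, 4.21, 4.197 and 8.03 FPKM in hypothalamus libraries, so that pituitary library 2 and hypothalamus library 1 were the high ones. PDYN was not called (-0.21 ± 1.14) and was lower without pituitary library 2 (-2.57, edgeR adjusted p = 0.038). RAX (1.403, 3.78, 0.153 and 0.477 FPKM in pituitary libraries 1 to 4), HMX3 (0.119, 4.0, 0.04898 and 0.166 FPKM) and OTP (0.0001, 2.53, 0.0001 and 0.147 FPKM) peaked in pituitary library 2 as well.

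**Figure D4:**
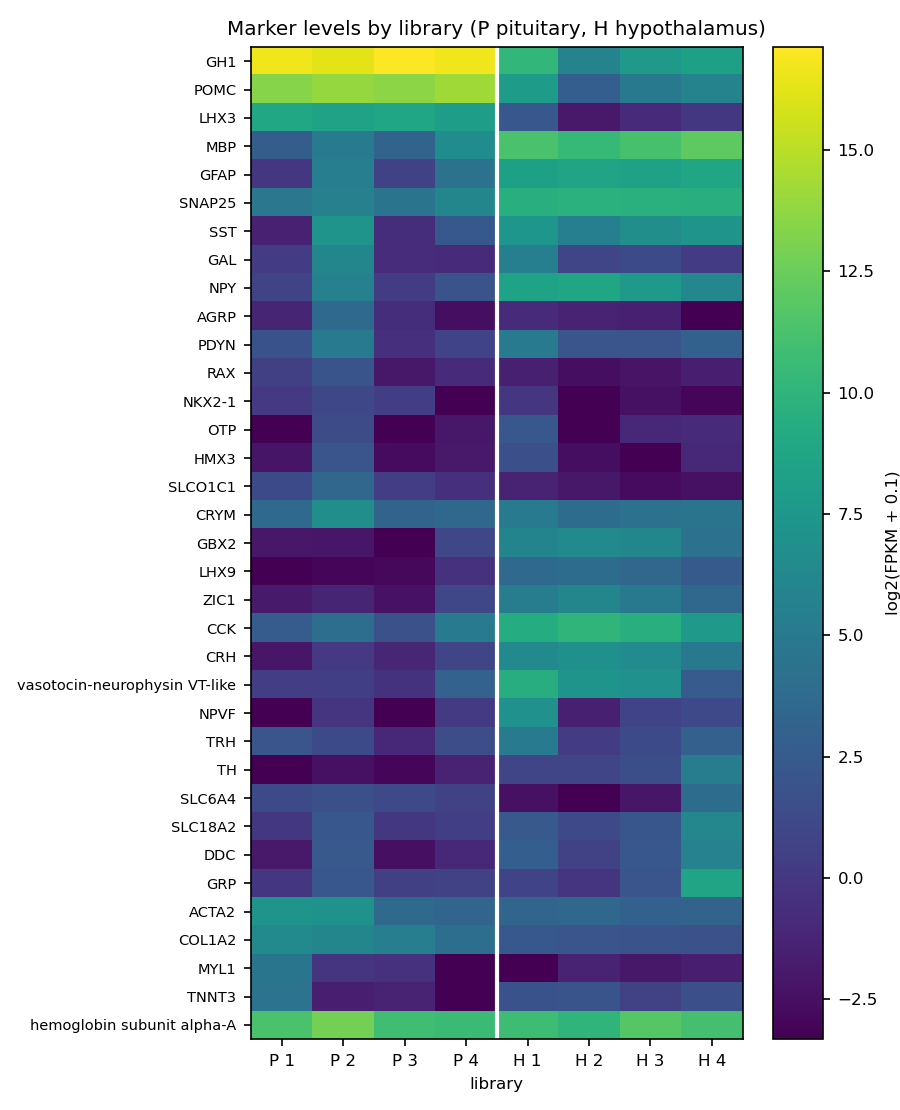
Level of marker genes in each library as log2(FPKM + 0.1), pituitary libraries 1 to 4 left of hypothalamus libraries 1 to 4. Pituitary library 2 shows SST, GAL, NPY and AGRP above the other pituitary libraries, hypothalamus library 1 shows vasotocin, NPVF and TRH, and hypothalamus library 4 shows TH, SLC6A4, DDC and GRP.

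Regional transcription factors ran in both directions. Of 29 tested, 7 were higher and 12 lower in pituitary, against 28.5% and 27.8% of all genes. PITX3, known from midbrain dopamine neurons and the lens, was at 95.9, 45.2, 93.4 and 88.1 FPKM in pituitary libraries 1 to 4 and 1.51, 0.208, 0.378 and 4.45 FPKM in hypothalamus libraries 1 to 4 (5.88 ± 0.95, edgeR adjusted p = 0.00063). SIX3, which patterns the forebrain and the pituitary, was at 177, 187, 99.4 and 155 FPKM in pituitary and 10.5, 5.65, 4.99 and 7.95 FPKM in hypothalamus (4.60 ± 0.26, edgeR adjusted p = 4.9e-06). TBX3 (2.26 ± 0.22) was higher too. LHX9 (-5.67 ± 1.29), ZIC1 (-5.66 ± 1.0) and the neuronal POU factors POU3F2 (-3.76 ± 0.39), POU3F3 (-4.79 ± 0.44) and POU3F4 (-3.67 ± 0.37) were lower past the 2-fold test. LHX9 was at -8.71 without pituitary library 4. RAX was higher past the 2-fold test (3.21 ± 0.86), with the levels given above. Its groups overlapped, since pituitary library 3 lay within the hypothalamus range. With limma on log2(FPKM + 1) RAX was not called (0.86, limma adjusted p = 0.077).

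Among genes with a symbol, at least 10 FPKM in the higher tissue and groups that did not overlap, GBX2 had the largest difference of the lower ones, at 0.155, 0.1304, 0.0001 and 1.96 FPKM in pituitary and 59.9, 88.5, 65.6 and 20.9 FPKM in hypothalamus libraries (-6.50 ± 1.25, edgeR adjusted p = 0.0018). After GBX2, TH and CRH came SLC13A4 (-6.37 ± 0.77), a sulfate carrier of choroid plexus and brain, RGS8 (-6.18 ± 0.76), a brake on G protein signalling, HAPLN4 (-6.17 ± 0.97), which anchors the matrix around axons, SYT2, SFTPC (-6.13 ± 0.55) and APOH (-6.09 ± 0.82). The lowest hypothalamus library for GBX2 was more than 10 times above the highest pituitary library.

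At the other end stood TSPAN1, a tetraspanin of epithelia, with 33.9, 16.99, 16.7 and 11.3 FPKM in pituitary libraries 1 to 4 and no counts in any hypothalamus library, at least 581-fold higher in pituitary with a floor of 3 counts per library. It was followed by SIGIRR (9.32 ± 0.83), a brake on interleukin signalling, AGR2 (8.43 ± 1.10), a disulfide isomerase of secretory epithelia, FSHB, UPK3BL1 (8.27 ± 1.36), LHX3, GH1, the adhesion protein MPZL2 (8.21 ± 1.10), POU1F1 and the phosphate carrier SLC34A2 (7.90 ± 0.84). AGR2 was at 33.5, 13.7, 17.3 and 17.2 FPKM in pituitary and 0.298, 0.0001, 0.0001 and 0.0001 FPKM in hypothalamus libraries, and MPZL2 at 45.7, 46.7, 46.4 and 40.7 FPKM in pituitary and 0.638, 0.0001, 0.0001 and 0.1197 FPKM in hypothalamus. For both, the level in hypothalamus came mainly from library 1, and AGR2 and UPK3BL1 had counts in no other hypothalamus library. Without it their fitted values were 13.24 for AGR2 and 13.09 for UPK3BL1, against a hypothalamus group without counts.

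Myelin and glial genes were lower. Of 18 myelin and oligodendrocyte genes 16 were lower, all past the 2-fold test, against 13.5% of all genes, and 0 were higher by edgeR, with a median of -4.61. CNP, an enzyme of myelin-forming cells, was at 15.4, 22.1, 10.1 and 28.2 FPKM in pituitary libraries 1 to 4 and 595, 260.0, 736 and 809 FPKM in hypothalamus libraries 1 to 4 (-4.79 ± 0.42, edgeR adjusted p = 2e-05). Pituitary libraries 2 and 4 were the high ones among the pituitary libraries for MBP and CNP. SOX10, the factor of the oligodendrocyte lineage, was at 2.46, 2.57, 0.344 and 3.201 FPKM in pituitary and 56.3, 40.8, 43.3 and 57.7 FPKM in hypothalamus (-4.37 ± 0.53). TF, transferrin, was not called, at 159, 55.8, 31.8 and 37.1 FPKM in pituitary and 107, 102, 94.2 and 95.1 FPKM in hypothalamus libraries (-0.32 ± 0.42), and was lower without pituitary library 1 (-1.04, edgeR adjusted p = 0.0005).

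Of 16 astrocyte, tanycyte and ependymal genes 13 were lower and 0 higher by edgeR, with a median of -2.04. GFAP, the filament of astrocytes, was at 0.8497, 42.6, 1.55 and 20.3 FPKM in pituitary and 319, 396, 336 and 419.6 FPKM in hypothalamus libraries (-4.39 ± 1.06, edgeR adjusted p = 0.0063), and -7.92 without pituitary libraries 2 and 4. SLC1A2, a glutamate transporter of astrocytes, was low in all pituitary libraries, at 0.268 to 0.885 FPKM, against 17.7 to 26.98 FPKM in hypothalamus (-5.15 ± 0.44). ALDOC, the brain aldolase, was at 327 to 410.2 FPKM in pituitary and 1952 to 2501 FPKM in hypothalamus (-2.37 ± 0.15).

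Cholesterol synthesis genes were lower or not called. Of 21 sterol genes 12 were lower, against 27.8% of all genes, 7 past the 2-fold test, and 0 higher by edgeR, with a median of -0.79. IDI1, the isomerase of isopentenyl diphosphate, was at 9.9, 11.7, 10.1 and 15 FPKM in pituitary libraries 1 to 4 and 48.7, 45.01, 47.01 and 50.8 FPKM in hypothalamus libraries 1 to 4 (-1.81 ± 0.17, edgeR adjusted p = 2.5e-05). APOA1, the main protein of high-density lipoprotein, which bird tissues other than liver also make, was at 150.2, 401, 77.1 and 142 FPKM in pituitary and 2282, 2403, 2501 and 2434 FPKM in hypothalamus (-3.51 ± 0.39, edgeR adjusted p = 7e-05). The regulators SREBF2 (0.28 ± 0.21, interval -0.19 to 0.75) and SCAP (0.19 ± 0.21, interval -0.29 to 0.67) were not called.

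Epithelial genes were higher in pituitary. Of 25 adhesion and keratin genes 21 were higher, 17 past the 2-fold test, and 1, TJP1, was lower (-0.97 ± 0.28); the median was 3.49. CLDN1, a tight junction protein, was at 152, 121, 148 and 84.6 FPKM in pituitary and 1.85, 1.21, 1.27 and 1.7 FPKM in hypothalamus libraries (6.63 ± 0.31, edgeR adjusted p = 3.7e-06). EPCAM, an epithelial adhesion molecule, was at 24.3 to 40.7 FPKM in pituitary and 0.0633 to 0.738 FPKM in hypothalamus (7.02 ± 0.69), and KRT8 at 48.2 to 60.9 FPKM in pituitary and 0.0785 to 0.999 FPKM in hypothalamus (6.89 ± 0.62). A gene annotated as keratin 19, named after its values were seen, was at 232, 192, 249.9 and 149 FPKM in pituitary and 3.34, 0.0419, 1.41 and 0.483 FPKM in hypothalamus libraries (7.56 ± 1.0). The splicing factors ESRP1 (6.86 ± 0.85) and ESRP2 (6.64 ± 0.44) and the factor GRHL2 (6.88 ± 0.80), all of epithelia, were higher. KRT20 had no counts in hypothalamus. It was at 1.304 FPKM in pituitary library 2 and 0.101 to 0.214 FPKM in the other pituitary libraries. By its mean over the pituitary libraries it was at least 14.6-fold higher with a floor of 3 counts per library. That bound rests mainly on pituitary library 2. With limma on log2(FPKM + 1) KRT20 was not called (0.47, limma adjusted p = 0.077).

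The list of folliculostellate and stem cell markers, defined mainly in mammals, ran in both directions. Of 15 tested, 10 were higher and 4 lower. The retinoic acid enzymes ALDH1A1 (6.58 ± 0.41), ALDH1A3 (4.81 ± 0.45) and ALDH1A2 (3.69 ± 0.33) were higher, with ALDH1A3 at 191, 85.2, 40.2 and 99.8 FPKM in pituitary and 5.49, 4.095, 4.62 and 2.42 FPKM in hypothalamus libraries. The chemokine CXCL12 was higher as well (3.29 ± 0.30). S100B, which marks folliculostellate cells but also astrocytes, was lower, at 17.97, 31.5, 17.8 and 27.5 FPKM in pituitary and 102, 87.9, 89.96 and 207 FPKM in hypothalamus (-2.16 ± 0.31), as was RSPO4 (-4.28 ± 0.38).

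Genes of motile cilia were higher or not called, with 2 exceptions. Of 27 tested, 12 were higher, against 28.5% of all genes, and 13 were not called, with a median of 0.85. The 2 lower ones were CCDC39 and TEKT1, which build the axoneme. The share called was no higher than the 56.3% of all genes. Summed levels of the list overlapped, at 179 to 224 FPKM in pituitary and 188 to 207 FPKM in hypothalamus. CFAP65 (3.65 ± 0.51), ROPN1L (2.34 ± 0.23) and LRRC23 (2.09 ± 0.30) passed the 2-fold test. The master factor of motile cilia FOXJ1 was not called, at 1.43, 2.58, 2.18 and 4.41 FPKM in pituitary and 2.59, 2.303, 1.06 and 0.839 FPKM in hypothalamus libraries (0.87 ± 0.47). Levels of the axonemal dynein DNAH9 were 3.43 to 5.12 FPKM in pituitary and 1.64 to 2.18 FPKM in hypothalamus (1.3 ± 0.18).

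Most matrix genes were higher, but their summed level was not. Of 31 tested, 22 were higher, against 28.5% of all genes, and 5 lower, with a median of 1.95. Past the 2-fold test 16 were higher, against 11.5% of all genes. Summed levels of the list overlapped, at 625 to 1328 FPKM in pituitary and 1052 to 1314 FPKM in hypothalamus. COL6A2 was at 28.6, 17.97, 13.1 and 5.11 FPKM in pituitary libraries 1 to 4 and 0.275, 0.246, 0.489 and 0.285 FPKM in hypothalamus libraries 1 to 4 (5.81 ± 0.52, edgeR adjusted p = 2.1e-05), and COL1A2, of fibrillar collagen, at 82.5, 66.5, 42.1 and 16.5 FPKM in pituitary and 4.83, 4.12, 3.73 and 3.18 FPKM in hypothalamus (3.90 ± 0.43). Library 1 was the highest and library 4 the lowest pituitary library for both. PDGFRA, on this list as a fibroblast gene, marks oligodendrocyte precursors in brain and was lower (-3.24 ± 0.31).

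Vessel genes differed one by one. Of 21 endothelial and mural genes 8 were higher and 4 lower, a share called near the 56.3% of all genes, with a median of 0.39. PLVAP, which forms the diaphragms of fenestrated capillaries, was at 71.1, 79.7, 75.1 and 39.6 FPKM in pituitary and 1.21, 2.005, 0.391 and 0.765 FPKM in hypothalamus libraries (6.15 ± 0.54, edgeR adjusted p = 1.9e-05). SLC2A1, the glucose transporter of the blood-brain barrier, was at 14.2, 21.1, 13.5 and 14.9 FPKM in pituitary and 75.4, 71.5, 72.2 and 84.1 FPKM in hypothalamus (-2.04 ± 0.14, edgeR adjusted p = 7.6e-06). CLDN5, the claudin of that barrier, was not called at the more abundant of the loci with that symbol (-0.32 ± 0.22, edgeR adjusted p = 0.24), nor at the less abundant one. The endothelial receptors TIE1 (2.49 ± 0.23) and KDR (2.18 ± 0.17) were higher and FLT1 (-1.28 ± 0.19) and CDH5 (-1.37 ± 0.25) lower. ACTA2, the actin of smooth muscle, was at 153, 135, 12.9 and 10.04 FPKM in pituitary libraries 1 to 4 and 8.21 to 12 FPKM in hypothalamus (3.09 ± 0.79), with pituitary libraries 1 and 2 far above 3 and 4.

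Immune, muscle and blood markers were low or uneven. Of 15 microglia and macrophage genes 3 were higher and 3 lower, against 28.5% and 27.8% of all genes. Past the 2-fold test 2 were higher and 1 lower. Log2 fold changes of the list ran from -2.73 to 3.01, with a median of 0.19. Its summed levels overlapped, at 171 to 520 FPKM in pituitary and 143 to 238 FPKM in hypothalamus. The lowest member was P2RY12, of resting microglia, at 0.2603 to 0.437 FPKM in pituitary and 2.19 to 3.36 FPKM in hypothalamus (-2.73 ± 0.23). Of 12 lymphocyte genes 5 were higher, against 28.5% of all genes, and 0 lower by edgeR. The higher ones were led by CD3E of T cells, at 6.94, 7.26, 7.28 and 4.12 FPKM in pituitary and 0.489, 0.162, 0.165 and 0.235 FPKM in hypothalamus libraries (4.84 ± 0.44). Among 10 skeletal muscle genes 2 were higher, TNNC2 (26.3, 4.69, 5.35 and 3.14 FPKM in pituitary libraries 1 to 4) and MYL1 (24.6, 0.7901, 0.643 and 0.0001 FPKM), and library 1 was the high one for both. Without it MYL1 was at 1.67 (edgeR adjusted p = 0.37), against 5.28 ± 1.86 with it, and its call was also lost without any single hypothalamus library (edgeR adjusted p between 0.066 and 0.083). With 1 more that was not tested, the list of 11 genes summed to 9.56 to 252 FPKM in pituitary and 48.6 to 68.6 FPKM in hypothalamus. A gene annotated as hemoglobin subunit alpha-A was at 2433, 7331, 1851 and 1591 FPKM in pituitary and 1713, 1076, 3357 and 2129 FPKM in hypothalamus libraries (0.82 ± 0.47, edgeR adjusted p = 0.16). Of 4 other erythrocyte genes tested, 1 was lower and 0 higher by edgeR.

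No photoreceptor or opsin gene of the lists was called, and choroid plexus genes were called in part. Of 12 choroid plexus and meninges genes 3 were higher and 2 lower, against 28.5% and 27.8% of all genes. The 2 lower ones passed the 2-fold test and the 3 higher ones did not. Log2 fold changes of the list ran from -6.37 to 1.80, with a median of -0.18. TTR, the carrier made by choroid plexus, was at 0.768, 1.65, 0.453 and 25.6 FPKM in pituitary and 39.2, 109.8, 24.7 and 17.3 FPKM in hypothalamus libraries. It was not called (-2.54 ± 1.23), but lower without pituitary library 4 (-5.49, edgeR adjusted p = 0.00077). OTX2, a factor of choroid plexus and midbrain, was lower (-3.22 ± 0.93), a call lost without pituitary libraries 2 and 4 (-3.45, edgeR adjusted p = 0.069). None of the 9 photoreceptor and pineal genes tested was called by edgeR, nor were the 2 opsins tested, OPN3 and RRH. Over all genes 56.3% were called. Another 2 opsins of the list had too few counts to be tested. Levels were near 0, as the 4 opsins summed to 0.552 to 1.55 FPKM in pituitary and 0.916 to 1.80 FPKM in hypothalamus. The 10 photoreceptor and pineal genes summed to 2.83 to 6.36 FPKM in pituitary and 4.23 to 7.26 FPKM in hypothalamus. A missing call does not show equal levels here. A gene annotated as vertebrate ancient opsin, a light receptor of the bird brain named after its values were seen, was at 0.0001 to 0.0555 FPKM in pituitary and 0.716 to 1.25 FPKM in hypothalamus (-5.18 ± 1.08, edgeR adjusted p = 0.0028).

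Energy metabolism differed by pathway and isoform. Of 17 glycolysis genes 11 were lower and 2 higher, with a median of -0.91. The enolase isoforms differed in opposite directions. ENO1 was at 2506, 2369, 3764 and 2798 FPKM in pituitary libraries 1 to 4 and 1091, 1091, 1081 and 1222 FPKM in hypothalamus libraries 1 to 4 (1.61 ± 0.24), and the neuronal ENO2 at 11.2, 112, 17.5 and 74.6 FPKM in pituitary and 1315, 1379, 1151 and 1291 FPKM in hypothalamus (-4.43 ± 0.66). ALDOC, LDHB, PKM and SLC2A1 were lower (-1.77 ± 0.13 for LDHB and -1.13 ± 0.14 for PKM). Of 60 oxidative phosphorylation genes 22 were lower, 6 higher and 13 alike, with a median of -0.19, and of 27 proteasome subunits 3 were lower, 5 higher and 8 alike. For both sets these shares called higher or lower are below those of all genes, 28.5% and 27.8%, except for the lower oxidative phosphorylation genes.

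Cell division genes were higher in pituitary at low levels. Of 28 tested, 17 were higher and 0 lower by edgeR, with a median of 0.96. RRM2, which makes deoxynucleotides for replication, was at 7.96, 6.42, 19.4 and 6.39 FPKM in pituitary libraries 1 to 4 and 0.915, 0.257, 0.402 and 0.805 FPKM in hypothalamus libraries 1 to 4 (4.39 ± 0.61, edgeR adjusted p = 0.00027), and the mitotic kinase PLK1 at 3.05, 2.29, 5.37 and 1.36 FPKM in pituitary and 0.272, 0.299, 0.242 and 0.191 FPKM in hypothalamus (3.85 ± 0.52). Pituitary library 3 was the highest and library 4 the lowest pituitary library for both.

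Immediate early genes, the rapid transcriptional answer of a cell to a stimulus, were mostly higher. Of 18 tested, 11 were higher and 1 lower, with a median of 1.47. BTG2, an antiproliferative factor, was at 109, 126, 105 and 103 FPKM in pituitary and 12.4, 11.5, 6.79 and 5.63 FPKM in hypothalamus libraries (3.83 ± 0.28, edgeR adjusted p = 1e-05), and the phosphatase DUSP1 at 124, 128, 52.1 and 178 FPKM in pituitary and 19.2, 17.01, 9.85 and 7.01 FPKM in hypothalamus (3.37 ± 0.41). NR4A1, which acts in corticotropes downstream of CRH, was higher (3.15 ± 0.37). ARC, of neuronal synapses, was the lower one, at 0.2796 to 1.79 FPKM in pituitary and 10.8 to 16.2 FPKM in hypothalamus (-3.58 ± 0.48). FOS was not called, at 74.3, 50.6, 14.5 and 96.6 FPKM in pituitary and 38.9, 48.2, 28.7 and 28.9 FPKM in hypothalamus libraries (0.87 ± 0.44), and was higher without pituitary library 3 (1.18, edgeR adjusted p = 0.011).

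Of 18 clock genes tested, 3 were higher and 6 lower, a share called no higher than the 56.3% of all genes. PER3 was at 23.7, 21.2, 9.14 and 13.4 FPKM in pituitary and 3.29, 4.05, 2.73 and 3.01 FPKM in hypothalamus libraries (2.53 ± 0.25, edgeR adjusted p = 3.2e-05), and CRY1 was higher (0.78 ± 0.13). The activators CLOCK (-1.61 ± 0.24) and NPAS2 (-1.97 ± 0.21) were lower, and their partner ARNTL (BMAL1) was alike, with an interval of -0.34 to 0.29.

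Axon guidance genes were more often lower, and growth factor signalling genes were called about as often as all genes. Of 42 axon guidance genes 24 were lower and 6 higher, with ROBO3, which steers commissural axons, the most distant (-5.62 ± 0.47). Of 41 genes of BMP, activin and TGF-beta signalling 12 were higher and 12 lower, against 28.5% and 27.8% of all genes. INHA, the inhibin alpha subunit, was at 1.42, 0.408, 2.84 and 1.41 FPKM in pituitary and 0.0423, 0.0001, 0.0001 and 0.0001 FPKM in hypothalamus libraries (7.53 ± 1.26), and the activin subunit INHBA was higher (3.29 ± 0.45) where INHBB was lower (-3.39 ± 0.45). NOG (noggin), which blocks BMPs, was at 0.0381, 0.6405, 0.0929 and 1.04 FPKM in pituitary and 35.97, 56.99, 27.2 and 4.59 FPKM in hypothalamus libraries (-5.91 ± 1.05, edgeR adjusted p = 0.0011), while BMP4, which acts in pituitary development, was higher (1.82 ± 0.38).

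A neuropeptide gene was higher in pituitary. The gene annotated as relaxin-3-like, whose peptide is known from brainstem neurons in mammals, was at 172, 158, 541 and 358 FPKM in pituitary libraries 1 to 4 and 33.8, 45.1, 13.9 and 5.03 FPKM in hypothalamus libraries 1 to 4 (3.96 ± 0.77, edgeR adjusted p = 0.0018). Its lowest pituitary value was above its highest hypothalamus value. It was named after its values were seen.

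**Figure D5:**
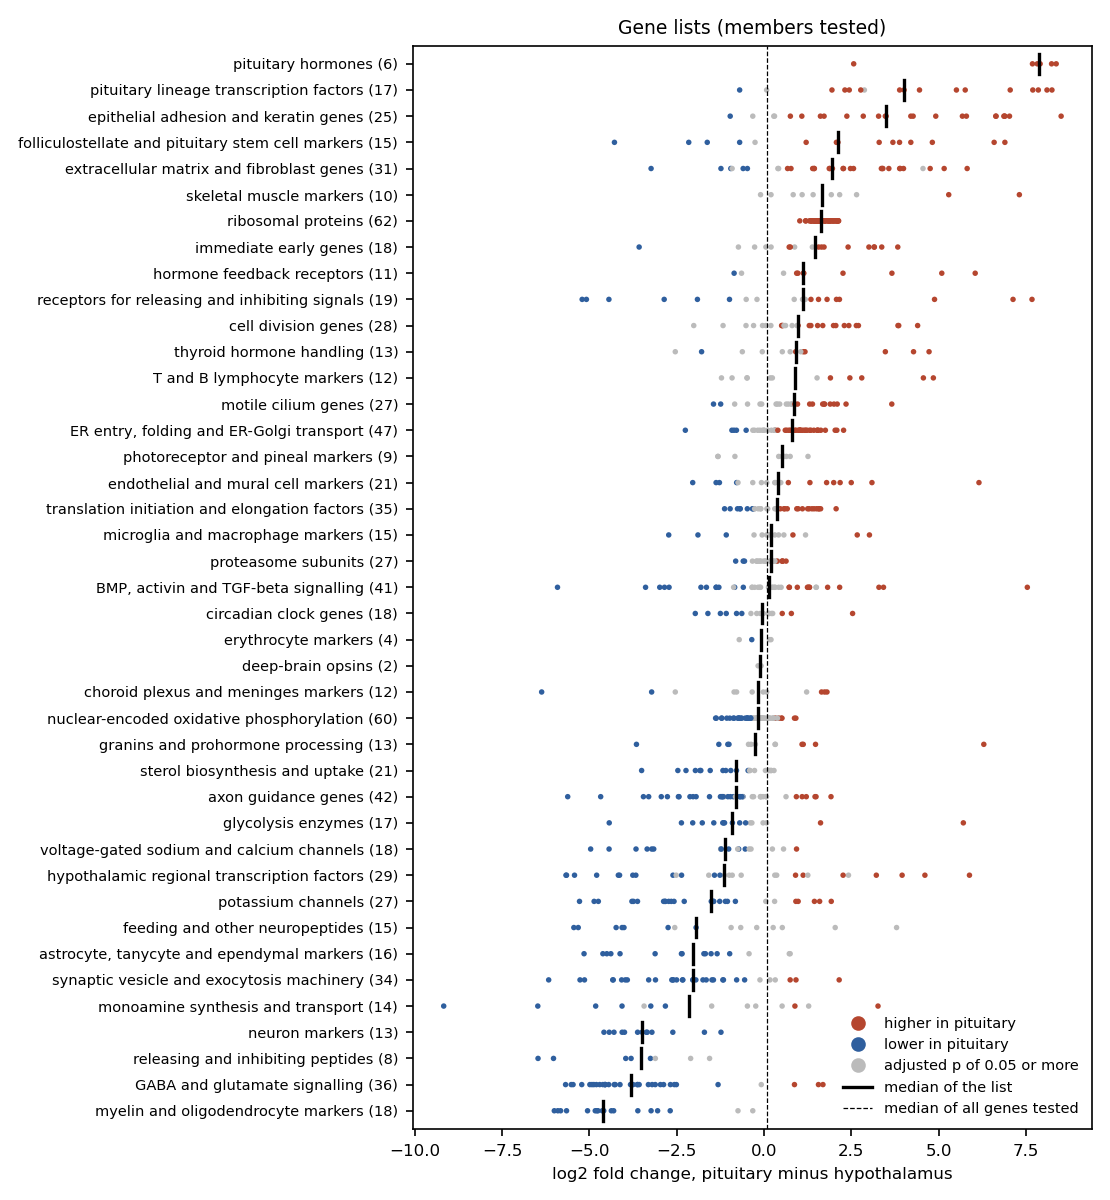
Log2 fold change, pituitary minus hypothalamus, of each tested member of the 41 gene lists, 1 row per list ordered by its median (black bar), with the number of members tested in parentheses. Red members were called higher and blue members lower in pituitary by edgeR, grey members were not called, and the dashed line is the median of all 15878 genes, 0.07.

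The same tissue difference was measured under caging. There 3373 of 15854 genes (21.3%) passed the 2-fold test. Of the 3895 genes past it in floor-water ducks that were also tested in caged ducks, 2768 passed it in the same direction in caged ducks, which is 71.1% of them and 83.6% of the 3311 genes past it in caged ducks that were also tested in floor-water ducks, and 0 passed it in the opposite direction by edgeR. The log2 fold change of GH1 was 8.23 ± 1.0 in floor-water and 4.36 ± 1.33 in caged ducks, and that of PRL 7.82 ± 1.02 in floor-water and 4.54 ± 1.40 in caged ducks. That of MBP was -5.90 ± 0.94 in floor-water and -6.18 ± 1.57 in caged ducks. The median over the 6 hormone genes was 7.86 in floor-water and 4.21 in caged ducks. GH1 took 0.00525% to 0.109% of counts in the floor-water hypothalamus libraries and 0.00271% to 1.57% in the caged ones.

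The difference between both tissue contrasts was tested over all 16 libraries as an interaction. Of 17010 genes, edgeR passed 0 (0%) at an adjusted p of 0.05 and DESeq2 131, and by edgeR 1226 genes were below an unadjusted p of 0.05. Among the 5 smallest p-values 2 belonged to genes with a symbol, CTXND1 (7.29 ± 1.08) and CERKL (2.29 ± 0.40), both at an adjusted p of 0.14. For SLCO1C1 the difference between the contrasts, floor-water minus caged, was 7.50 ± 1.66 (edgeR adjusted p = 0.28), with 4.72 ± 0.95 in floor-water and -2.75 ± 1.17 in caged ducks, where it was not called. An interaction that misses the threshold does not show that housing left the tissue difference untouched.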

How the data were processed

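RNA sequencing libraries of pituitary and hypothalamus were grouped by their labels. Per the submitters' processing notes the authors used cutadapt, HISAT2, StringTie 1.3.4d and DESeq2, while genome build and strand setting are not given in the sources used here. Raw counts and FPKM values were deposited by the authors for 24263 genes, of which 12400 carry a symbol. Another 537, listed there by locus, took a symbol from a RefSeq gene reference, and 8 more are named by their product. Counts were tested and FPKM values only describe levels. Genes with low counts were removed with filterByExpr, leaving 15878, libraries were scaled by TMM, and edgeR 4.0.16 fitted the 8 floor-water libraries with its quasi-likelihood test, Benjamini-Hochberg adjustment and glmTreat for the 2-fold test. Intervals are at 95%. The interaction was fitted over 16 libraries. The procedure was also run on simulated counts in which few genes changed, evenly up and down. Far more genes differ in these data, so that run cannot vouch for the scaling or the number of genes called.

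The libraries and the 41 gene lists were chosen with earlier results of these data known. Named genes are the most abundant, the most different and the most alike genes with a symbol and at most 6 members a list plus those against its median; 130 of 212 genes with values follow this rule and 82 were chosen after their values were seen; some genes that met it are not reported here. The alternatives used limma 3.58.1 on log2(FPKM + 1) and log2(FPKM + 0.1), DESeq2 1.42.0, other scalings and filters, a replicate block and leaving out libraries.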

Additional observations from a re-analysis of the deposited data

Results flagged for a closer look

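A library was singled out where its distance to the nearest of the other 3 libraries of its tissue exceeded, as a share of the range of all 4, Dixon's 95% limit. The 212 genes given with values make 424 such groups. Chance flags about 1 in 20 groups, but 82 of the genes were chosen after their values were seen, some of them for a single high library, so the number is not set against chance. With the marker medians added, 63 met the limit, most of them in pituitary library 2 and hypothalamus libraries 1 and 4. What sets these libraries apart was not tested.

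Pituitary library 2 stood above the other pituitary libraries in neuropeptide transcripts. These were SST at 155 FPKM, GAL at 66.3 FPKM, NPY at 49.7 FPKM, PDYN at 36.3 FPKM, TAC1 at 33.7 FPKM, VIP at 14.2 FPKM, AGRP at 12.3 FPKM, ADCYAP1 at 6.06 FPKM and GRP at 4.49 FPKM. It also stood above them in the regional factors HMX3 at 4.0 FPKM and OTP at 2.53 FPKM and in the monoamine genes DDC, a decarboxylase that makes dopamine and serotonin, at 5.25 FPKM and SLC18A2 at 4.72 FPKM. Genes of thyroid hormone binding and breakdown were high there too, CRYM at 113 FPKM and DIO3 at 13.9 FPKM. The others were hemoglobin subunit alpha-A at 7331 FPKM, CFAP65 at 6.06 FPKM and KRT20 at 1.304 FPKM, and PITX3 was low at 45.2 FPKM.

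Pituitary library 4 stood above the other pituitary libraries in TTR at 25.6 FPKM, vasotocin-neurophysin VT-like at 8.65 FPKM, SYT2 at 3.47 FPKM, GBX2 at 1.96 FPKM, ZIC1 at 1.92 FPKM and LHX9 at 0.675 FPKM, and below them in CD3E at 4.12 FPKM. Pituitary library 1 stood above the others in the muscle genes TNNC2 at 26.3 FPKM and MYL1 at 24.6 FPKM and in SIGIRR at 12.9 FPKM. Pituitary library 3 was high in RRM2 at 19.4 FPKM.

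Hypothalamus library 1 stood above the other hypothalamus libraries in genes that are high in pituitary. These were CHGA at 1048 FPKM, PRL at 475 FPKM, CGA at 63.5 FPKM, INSM1 at 3.63 FPKM, NR5A1 at 2.91 FPKM, gonadotropin-releasing hormone II receptor-like at 1.297 FPKM, SLC34A2 at 0.450 FPKM, AGR2 at 0.298 FPKM, UPK3BL1 at 0.292 FPKM and INHA at 0.0423 FPKM. Its median level of the 6 pituitary hormone genes was 1.47% of the pituitary mean, against 0.0586% to 0.292% in the other hypothalamus libraries. It was also high in the hypothalamic transcripts NPVF at 129.5 FPKM, GAL at 44.1 FPKM, PDYN at 34.5 FPKM, OTP at 4.47 FPKM, HMX3 at 3.08 FPKM and NKX2-1 at 0.817 FPKM. In SSTR3 it was low, at 5.93 FPKM.

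Hypothalamus library 4 stood above the others in the monoamine genes SLC18A2 at 70.4 FPKM, DDC at 54.1 FPKM, TH at 38.8 FPKM, SLC6A2 at 30.6 FPKM and SLC6A4 at 14.6 FPKM. It was also high in ENO1 at 1222 FPKM, GRP at 398 FPKM, S100B at 207 FPKM and POU3F3 at 10.3 FPKM, and low in NR3C2 at 3.90 FPKM. Hypothalamus library 2 was high in RSPO4 at 6.20 FPKM and low in SCN8A at 17.6 FPKM and ESR1 at 0.111 FPKM. Hypothalamus library 3 was high in COL6A2 at 0.489 FPKM and SIGIRR at 0.0610 FPKM.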

How the results depend on the processing

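The count of 8935 called genes stayed between 8139 and 8820 when 1 library was left out, and the 3962 genes past the 2-fold test between 3578 and 4030; limma on log2(FPKM + 1) passed 2011. The cause of that lower number was not tested. The 791 genes alike were the least stable count: 497 to 998 without 1 library (504 without hypothalamus library 1 and 497 without hypothalamus library 3), 369 without pituitary libraries 2 and 4, and 38 with limits of -0.3 and 0.3. The interaction between tissue and housing passed 0 genes in edgeR and 131 in DESeq2. It passed 0 to 4 without 1 library (4 without floor-water pituitary library 3, 3 without caged pituitary library 2 and 1 without caged hypothalamus library 2) and 1 without floor-water pituitary libraries 2 and 4 and caged hypothalamus library 4. As a mean in place of a median over the genes, the hormone genes in hypothalamus stood at 3.65%, not 0.248%, and the myelin genes in pituitary at 10.97%, not 4.06%, with 7.56% for neuron markers.

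Of 187 named genes called, 159 kept direction and call in each of 16 settings, caging among them, and 3 more (CHAT, SLC6A2 and TH) in the 15 that gave them a value. GRP turned to 0.10 without hypothalamus library 4 and went down to -6.08 without pituitary library 2, and in caged ducks RAX was at -1.81 and SLCO1C1 at -2.75. Some named genes not called in floor-water ducks were lower in caged ducks. NKX2-1 was at -6.65 there (edgeR adjusted p = 0.0019), against 2.41 ± 1.58 in floor-water ducks. Its difference between the contrasts was 9.08 ± 2.30 (edgeR adjusted p = 0.30). GAL (-4.72), CRYM (-2.60) and FOXJ1 (-1.59) were also called lower in caged ducks, with values above 0 in floor-water ducks. Of 41 list medians, 12 moved by more than the spread between libraries with scaling by totals, 2 with upper quartile scaling, 22 with limma, 9 without pituitary libraries 2 and 4, 2 with the block, 0 to 5 without 1 library and 25 under caging.

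Libraries share replicate numbers across tissues, but the labels do not say that a number marks a bird. Same-numbered libraries deviated together with correlations of 0.18, 0.083, 0.16 and 0.098 over 13443 genes, each library closest to its own number, and 2 of the 4 are under 0.1. With the replicate number as a block 8429 genes were called, 3677 passed the 2-fold test, 524 were alike and the interaction passed 0. Among named genes the block removed the calls of NPVF (-2.88, edgeR adjusted p = 0.33), GRP (-1.20, edgeR adjusted p = 0.57) and MYL1 (2.14, edgeR adjusted p = 0.42). Those of SLC18A2 (-2.11, edgeR adjusted p = 0.14) and CRHR1 (1.07, edgeR adjusted p = 0.083) were lost too. TTR was called lower with the block (-4.51, edgeR adjusted p = 0.032). Counting error limits only genes near 0 FPKM, since each library holds at least 38853215 counts.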

Other observations

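Some of the larger differences lay outside the gene lists, and the 4 genes below were picked after their values were seen. MGP, the matrix Gla protein that restrains calcification, was at 623, 701, 311 and 206 FPKM in pituitary libraries 1 to 4 and 6.01, 1.73, 6.78 and 3.87 FPKM in hypothalamus libraries 1 to 4 (6.82 ± 0.55, edgeR adjusted p = 1.4e-05). CEBPD, a transcription factor of inflammation and fat cells, was at 135, 260.1, 64.6 and 54.9 FPKM in pituitary and 3.03, 1.99, 1.28 and 0.814 FPKM in hypothalamus libraries (6.32 ± 0.61, edgeR adjusted p = 3.2e-05). In both, each pituitary library was above each hypothalamus library. MTNR1A, a melatonin receptor, was at 0.0001, 0.0366, 0.0153 and 0.0351 FPKM in pituitary and 1.93, 2.02, 2.25 and 0.5103 FPKM in hypothalamus libraries (-5.98 ± 0.85, edgeR adjusted p = 0.00031). RXFP1, a receptor of the relaxin family, was lower, at 0.0892 to 0.2104 FPKM in pituitary and 0.988 to 2.99 FPKM in hypothalamus (-3.78 ± 0.41, edgeR adjusted p = 6.3e-05), whereas the relaxin-3-like gene was higher.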
